A study of Mus musculus with 15 samples.

Results

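The transcripts of Krt23 (NM_033373.1) and Lgals7 (NM_008496.3) were followed with age in whole-mounted mammary glands of BALB-neuT mice. The genes were picked by name, through the RefSeq accession that the array files give for a probe. Each had 1 probe, and they are 2 of the 311 genes that could be named among 33012 gene probes. All mice were BALB-neuT, whose transgene is the activated rat HER-2/neu oncogene under a viral mammary tumour promoter that is active in mammary epithelium, and the labels present the ages as successive stages of mammary carcinogenesis. The groups were week 10 (n = 5), week 15 (n = 2), week 19 (n = 4) and week 22 (n = 4), with 1 array per animal by the series design. No mice without the transgene were analysed here, so ageing of the gland and tumour development cannot be told apart. The labels give neither the sex of the mice nor a dissection of tumour from gland, and RNA of a whole mount mixes epithelium, fat, vessels, nerves and immune cells.

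Krt23 encodes a type I (acidic) keratin, one of the proteins that pair with type II keratins to build the intermediate filaments of epithelial cells. It is known from glandular and gut epithelium, and in human cancer cell lines it is induced by histone deacetylase inhibitors. Lgals7 encodes galectin-7, a small lectin that binds beta-galactosides and is made mainly by stratified epithelia and by basal and myoepithelial cells. In human cells it is also known as a gene induced by p53. Krt23 lies on chromosome 11 at 99477973 to 99493120 and Lgals7 on chromosome 7 at 28863796 to 28866285 (GRCm38.p6, RefSeq). The array files give no probe sequences. The RefSeq promoters of both genes (250 bases before and 50 after the start site) are shown to set the start regions of these epithelial genes side by side, with capitals for letters that matched 1 of 6 motifs searched on both strands.
The Krt23 start site is the outer end of the gene span given above, while the Lgals7 start site used by the RefSeq table lies inside the annotated span and not at its first base.
Krt23 promoter, chr11:99493071-99493370, minus strand: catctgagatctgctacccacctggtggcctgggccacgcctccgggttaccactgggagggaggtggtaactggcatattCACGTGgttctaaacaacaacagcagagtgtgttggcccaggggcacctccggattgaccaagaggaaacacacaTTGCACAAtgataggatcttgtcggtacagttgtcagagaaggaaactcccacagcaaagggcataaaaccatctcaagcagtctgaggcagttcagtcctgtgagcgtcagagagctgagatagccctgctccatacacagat
Lgals7 promoter, chr7:28864136-28864435, plus strand: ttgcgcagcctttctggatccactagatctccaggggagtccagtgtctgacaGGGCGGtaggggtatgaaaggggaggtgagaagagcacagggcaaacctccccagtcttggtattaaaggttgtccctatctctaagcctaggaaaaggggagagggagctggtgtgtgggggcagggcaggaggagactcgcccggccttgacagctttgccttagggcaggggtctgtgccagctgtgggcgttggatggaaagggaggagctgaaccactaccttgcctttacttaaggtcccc
In the Krt23 window the E-box CACGTG began at position -169 and the C/EBP-type motif TTGCNNAA, as TTGCACAA, at position -94, counted from the start site. These letters occur in 7.15% and 10.8% of 32851 mouse promoters of the same length. In the Lgals7 window the GC box GGGCGG began at position -197, and 35.7% of the promoters hold it. The TATA box TATAAA, the AP-1-type motif TGANTCA and the STAT-type motif TTCNNNGAA were found in neither window, and occur in 13.6%, 7.81% and 8.3% of promoters. Capitals do not overlap between motifs, and a match describes letters only.

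Both genes were measured well above background on all 15 arrays. Signal-to-noise ratios lay between 12.66 and 71.01 for Krt23 and between 32.25 and 79.2 for Lgals7, where 3 was the limit for a call above background, and no array carried a quality flag on either probe. The SD given for the spot was 1.41% to 7.9% of the signal for Krt23 and 1.26% to 3.1% for Lgals7. Levels below are log2 signals after quantile normalization between arrays, so a step of 1 is a doubling. The array as a whole had 46.07% to 53.85% of its probes above background, and precision is limited by how many arrays there were, most of all at week 15. In this bulk tissue, fewer cells of a type and less RNA per cell cannot be told apart.

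Krt23 varied widely among young glands and was uniformly high in old ones. On the 5 week 10 arrays it stood at 15.31, 14.60, 12.43, 14.85 and 14.21, a 7.35-fold span between animals of the same age. Both week 15 arrays were low, at 12.71 and 13.39. The 4 week 19 arrays gave 15.16, 15.41, 15.61 and 15.23. The 4 week 22 arrays gave 15.29, 15.38, 15.71 and 16.07. Week 15 and 1 week 10 gland (replicate 3) thus held the 3 lowest of the 15 values, and the 8 arrays of weeks 19 and 22 all lay above 15. Only week 10 replicate 1 among the younger glands reached that level. The range over all arrays was 12.5-fold.

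Lgals7 was nearly level from gland to gland. Its log2 signals were 14.06, 13.97, 13.58, 14.19 and 13.99 at week 10. They were 14.27 and 14.15 at week 15. At week 19 they were 14.03, 14.13, 14.24 and 14.32, and at week 22 they were 14.46, 14.27, 13.94 and 14.27. The lowest value again belonged to week 10 replicate 3, the ages overlapped in every pair, and the whole range over 15 animals was 1.85-fold. The spread within an age, as a residual SD, was 0.192 for Lgals7 and 0.717 for Krt23, against a median of 0.479 over the 20867 probes tested. Of those probes 8.9% had a smaller spread than Lgals7 and 72.2% a smaller spread than Krt23.

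**Figure D1:**
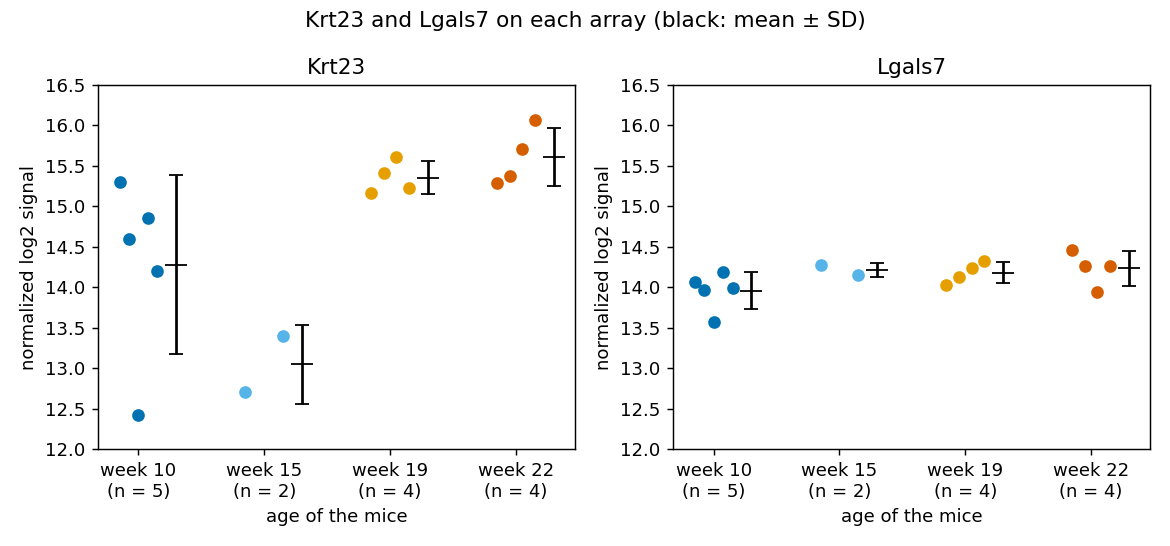
Normalized log2 signal of Krt23 (left) and Lgals7 (right) on each of 15 arrays, by age of the mice in weeks. Points are animals and black marks give the mean ± SD. Krt23 lies between 12.43 and 15.31 at week 10 and between 15.29 and 16.07 at week 22, while all Lgals7 values lie between 13.58 and 14.46.

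Differences between ages were tested with limma in 1 fit over all arrays, with p-values adjusted (Benjamini-Hochberg) over the 20867 probes tested and a threshold of 0.05. Krt23 rose at both late ages against week 15. Its mean was 15.61 ± 0.35 at week 22 (SD, n = 4) and 13.05 ± 0.49 at week 15 (n = 2), a 5.91-fold difference (2.56 ± 0.58 on the log2 scale, SE; limma adjusted p = 0.0219). At week 19 it was 15.35 ± 0.20 (n = 4), 4.94-fold above week 15 (2.30 ± 0.58, adjusted p = 0.025). Neither late age overlapped with week 15, but the share of all probes without overlap was not counted, so this is given no weight. Of all probes tested, 8.76% were called at week 22 against week 15 (5.68% higher, 3.08% lower) and 13.6% at week 19 against week 15 (6.66% higher, 6.92% lower), and Krt23 was among the higher ones in both.

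These calls rest on 2 arrays at week 15, which are assumed to vary like the other ages. Without week 15 replicate 1 neither passed, at 2.22 for week 22 (adjusted p = 0.157) and 1.96 for week 19 (adjusted p = 0.18), and with array series (runs of array serial numbers) as a block neither did, at 2.43 (adjusted p = 0.0531) and 2.11 (adjusted p = 0.132). Dropping week 22 replicate 3 left 2.53 (adjusted p = 0.0539) and dropping its replicate 4 left 2.41 (adjusted p = 0.0608), which ended the week 22 call. Dropping week 19 replicate 2 left 2.29 (adjusted p = 0.0523) and dropping its replicate 3 left 2.22 (adjusted p = 0.0612), which ended the week 19 call. Within scan day 1 (1 array against 1) the differences from week 15 were 2.58 at week 22 and 2.46 at week 19, and within scan day 2 (3 against 1) they were 2.33 and 2.02. Within array series 4 they were 2.50 and 2.22, all against a single week 15 array whose spread is assumed to be that of the other ages. The day 2 values passed on that assumption (adjusted p = 0.0304 and 0.0383).

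Against week 10, Krt23 did not pass at any age. Its mean at week 22, 15.61 ± 0.35 (SD, n = 4), stood against 14.28 ± 1.11 at week 10 (n = 5), a log2 difference of 1.33 ± 0.45 with a 95% interval of 0.37 to 2.30 (limma adjusted p = 0.0708). At week 19 the difference from week 10 was 1.07 ± 0.45 (interval 0.11 to 2.04, adjusted p = 0.134). Week 22 and week 10 overlapped by 1 animal, week 10 replicate 1 at 15.31 against the lowest week 22 value of 15.29. At week 15 the difference from week 10 was -1.23 ± 0.56 (interval -2.44 to -0.02, adjusted p = 0.426). Of all probes, 12% were called at week 22 (7.78% higher, 4.18% lower), 12.5% at week 19 (7.28% higher, 5.24% lower) and 0.0335% at week 15 (0.0192% higher, 0.0144% lower) against week 10. The late ages did not differ beyond their spread (week 22 minus week 19, 0.26 ± 0.47, interval -0.76 to 1.28, adjusted p = 0.938), and no probe was called between them (0% of 20867 by limma, with 1527 at an unadjusted p under 0.05).

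The week 22 difference from week 10 sat near the threshold. It passed with each array centred on its median (1.58, adjusted p = 0.0274), with array weights (1.25, adjusted p = 0.0136) and without week 10 replicate 1 (1.59, adjusted p = 0.0349), while without week 10 replicate 3, the low gland, it was 0.87 (adjusted p = 0.0531). Blocking on scan day gave 1.18 and blocking on array series 1.46, neither of which passed. The difference was 0.99 on day 1, 1.51 on day 2, 0.85 in array series 3 and 1.78 in series 4. For week 19 against week 10 the blocks gave 0.92 (day) and 1.14 (series), the days 0.87 and 1.21, and series 3 and 4 gave 0.79 and 1.504. With age as a number, the slope of Krt23 was 0.13 ± 0.05 log2 units per week (adjusted p = 0.0728, where 15.9% of probes were called, 9.49% higher and 6.45% lower), which passed without week 10 replicate 1 (0.15, adjusted p = 0.0343) or week 15 replicate 1 (0.12, adjusted p = 0.0463). In order of mean level, the ages ran week 15, week 10, week 19 and week 22, and no neighbours in that order differed past the threshold.

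Lgals7 passed in none of the 6 pairs of ages. Its mean was 14.23 ± 0.22 at week 22 (SD, n = 4) and 13.96 ± 0.23 at week 10 (n = 5), a log2 difference of 0.28 ± 0.16 with an interval of -0.06 to 0.62 (limma adjusted p = 0.274). At week 19 it was 0.23 ± 0.16 above week 10 (interval -0.12 to 0.57) and at week 15 it was 0.26 ± 0.20 (interval -0.17 to 0.68). Differences among weeks 15, 19 and 22 lay between -0.03 and 0.05, with intervals that stayed within -0.47 and 0.46. Under median centring of arrays, Lgals7 at week 22 stood above week 10 by 0.53 ± 0.19 (adjusted p = 0.075). Its slope was 0.02 ± 0.01 log2 units per week of age (adjusted p = 0.222). The week 22 difference from week 10 was 0.51 on scan day 1, 0.17 on day 2, 0.18 in array series 3 and 0.24 in series 4.

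**Figure D2:**
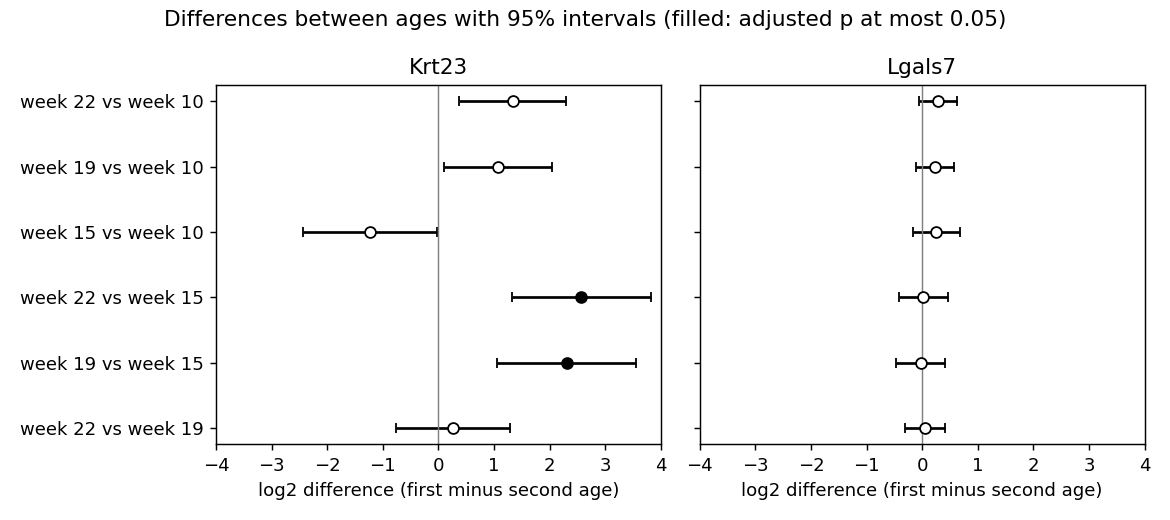
Differences in normalized log2 signal between each pair of ages (first minus second) for Krt23 (left) and Lgals7 (right), with 95% intervals from limma. Filled points passed an adjusted p of 0.05, which applies to Krt23 at week 22 (2.56) and week 19 (2.30) against week 15. The Lgals7 points lie between -0.03 and 0.28.

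Krt23 ran opposite to Aoc3, an amine oxidase abundant in fat cells and in vessel walls and the only 1 of 7 adipocyte markers that could be named. The 3 glands with the least Krt23 (week 10 replicate 3 and both of week 15) had the 3 highest Aoc3 levels, at 20.45, 20.26 and 20.22. The 3 with the most Krt23 (week 22 replicates 4 and 3 and week 19 replicate 3) had the 3 lowest, at 17.43, 17.88 and 17.12. Over the 15 arrays Pearson's r was -0.847 (permutation p = 8e-05, adjusted p = 0.00064 over 8 relations) and Spearman's rho was -0.943 (permutation p = 1e-05, the smallest that 100000 permutations can give, adjusted p = 8e-05). Without the 2 arrays farthest from the median of Krt23, r was -0.855. It was -0.963 within scan day 1 (n = 7), -0.913 within scan day 2 (n = 8) and -0.885 within array series 4 (n = 7). After each age's mean was removed, r was -0.635 (permutation p = 0.00708), so glands of the same age differed in the same sense. That p-value is only a rough guide. Deviations were shuffled across ages, and the SD of Krt23 was 1.109 at week 10 against 0.202 at week 19. This relation was singled out after its values were seen, and the share of all probes with as low an r was not counted. At the other end, 4.55% of 20866 other probes had an r with Krt23 above 0.834, so strong correlations were not rare. The permutations over 15 arrays do not separate a link between the 2 genes from a shift of both with age.

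Krt23 also ran with the milk protein genes, markers of secretory mammary epithelium. Of 7 such markers 4 could be named (Csn1s2a, Csn1s2b, Csn2 and Wap), and 1 or 2 of them were above background on each array of weeks 10 and 15, against 2 to 4 on those of weeks 19 and 22. The log2 of their summed signal was 11.40 to 13.17 at week 10, 11.66 and 12.70 at week 15, 14.46 to 18.53 at week 19 and 16.54 to 19.00 at week 22. Its r with Krt23 was 0.770 (permutation p = 0.00048, adjusted p = 0.00192) and rho 0.896 (permutation p = 3e-05, adjusted p = 0.00012). Csn1s2b, Csn2 and Wap were mostly at background at weeks 10 and 15, so the low end of the sum partly reflects the floor. These p-values are therefore given no weight. Without the 2 farthest arrays r was 0.736. It was 0.735 on scan day 1, 0.813 on day 2 and 0.825 in array series 4. With age means removed r was 0.425 (permutation p = 0.117), which did not pass. The leukocyte list had 4 nameable genes of 8 (Bcl2a1b, Lst1 and the chemokine genes Ccl19 and Ccl21a). They summed to 14.83 to 15.69 at week 10, 15.36 and 17.67 at week 15, 18.33 to 18.98 at week 19 and 16.40 to 17.82 at week 22. Ccl21a was the highest of them at week 19 (17.48 to 18.38) and stood at 14.1 to 17.06 at week 22. Bcl2a1b stood at 15.85 to 16.15 and 15.49 to 15.88 at those ages, and Lst1 at 13.75 to 14.48 and 13.84 to 14.29. The sum at week 19 thus followed mainly Ccl21a. Bcl2a1b stood above Ccl21a on every week 10 array and on week 22 replicates 1 and 2 (15.88 and 15.49 against 14.25 and 14.1). The sum is not read as leukocyte content. The r of the sum with Krt23 was 0.457 (permutation p = 0.0888, adjusted p = 0.168) and rho 0.521 (permutation p = 0.0487, adjusted p = 0.13). Without the 2 farthest arrays that r was 0.598, and it was 0.089 and 0.745 within scan days 1 and 2. The part of fat, milk-producing or immune cells in the Krt23 differences was not tested.

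Lgals7 followed none of these marker sums past the threshold. Its r was 0.465 with the milk protein genes, 0.432 with the leukocyte list, -0.343 with Aoc3 and -0.158 with hair genes (permutation p = 0.0752, 0.105, 0.21 and 0.546). Without the 2 arrays farthest from the median of Lgals7 they were 0.282, 0.38, -0.178 and -0.369. Spearman's rho was 0.393, 0.464, -0.246 and -0.225 in the same order (permutation p = 0.146, 0.0835, 0.373 and 0.419). Between the 2 genes themselves r was 0.444 (permutation p = 0.0999) and rho 0.218 (permutation p = 0.436). Without the 2 arrays farthest from the median of Krt23 that r was 0.261, and within scan days 1 and 2 it was 0.473 and 0.258. On deviations from the age means r was 0.55 (permutation p = 0.0419) and rho 0.246 (permutation p = 0.376). With each array centred on its median r was 0.488 (permutation p = 0.0647) and rho 0.543 (permutation p = 0.0394), so the call depended on the measure and the scaling. Week 10 replicate 3 was lowest in both genes.

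**Figure D3:**
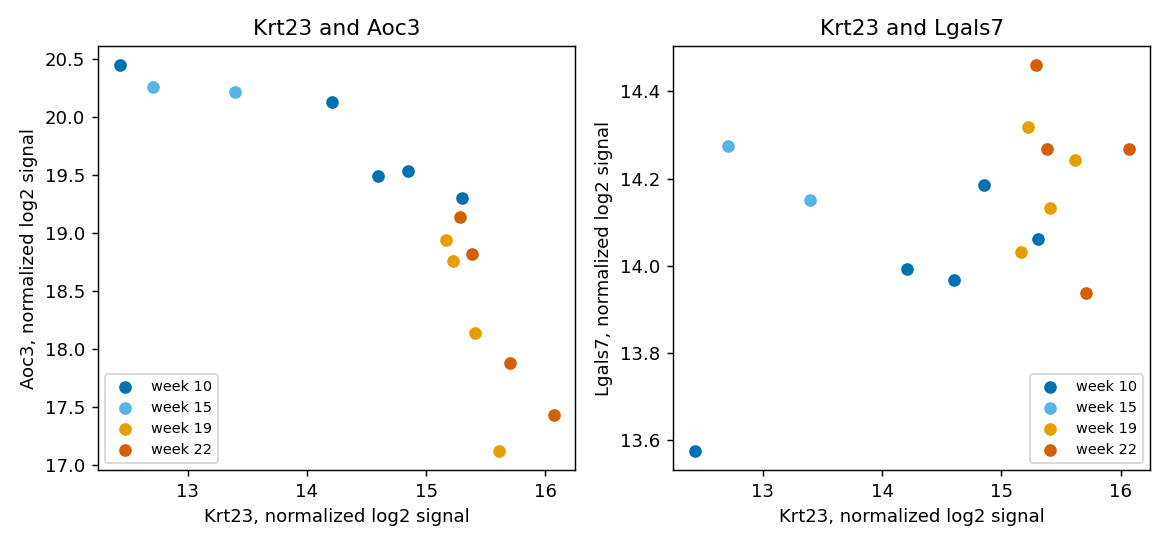
Normalized log2 signal of Krt23 (horizontal) against Aoc3 (left) and Lgals7 (right), with 1 point per array coloured by age. Aoc3 declines along Krt23 (r = -0.847), while r between Krt23 and Lgals7 is 0.444 (permutation p = 0.0999).

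Genes of hair follicles set 3 week 10 glands apart. Lgals7 is known to be abundant in skin, so these levels stand beside both genes. Of the hair markers 9 could be named (Krt25, Krt27 and 7 Krtap genes, which encode hair shaft proteins), and the log2 of their summed signal was 20.37, 19.15, 14.24, 17.19 and 13.94 on week 10 replicates 1 to 5. It was 14.06 to 14.71 at week 15, 13.91 to 14.81 at week 19 and 13.72 to 14.58 at week 22. On replicates 1, 2 and 4 of week 10, 8 or 9 of the 9 were above background, against 1 to 4 elsewhere. Those 3 glands had the 3 highest Krt23 levels of their age, while their Lgals7 levels, 14.06, 13.97 and 14.19, lay within the Lgals7 range of 13.94 to 14.46 at the other ages. They also had the 3 lowest Aoc3 levels of their age, 19.30, 19.49 and 19.54 against 20.45 and 20.13, and the 3 highest milk protein sums, 12.45 to 13.17 against 11.40 and 11.52. Over all 15 arrays r between the hair sum and Krt23 was 0.038 (permutation p = 0.912) and rho was -0.475 (permutation p = 0.0763), and r was -0.114 without the 2 farthest arrays. With age means removed r was 0.639 (permutation p = 0.0175, not adjusted). Within ages the hair sum varied widely only at week 10 (13.94 to 20.37), so this r rests mainly on the 5 glands of that age.

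Leaving out those 3 week 10 glands, a choice made after the data were seen, moved the Krt23 differences from week 10. These 3 held the highest Krt23 levels of their age, so every Krt23 difference from week 10 had to rise. The Krt23 p-values of this step are therefore given no weight. Week 22 then stood 2.29 above week 10 (limma adjusted p = 0.00977) and week 19 stood 2.04 above it (adjusted p = 0.0166), with 2 arrays left at week 10. Week 15 then differed from week 10 by -0.27 (adjusted p = 0.937), against -1.23 with all arrays. Lgals7 was then 0.45 higher at week 22 than at week 10 (adjusted p = 0.196). The part of hair, skin and fat in these values was not tested.

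**Figure D4:**
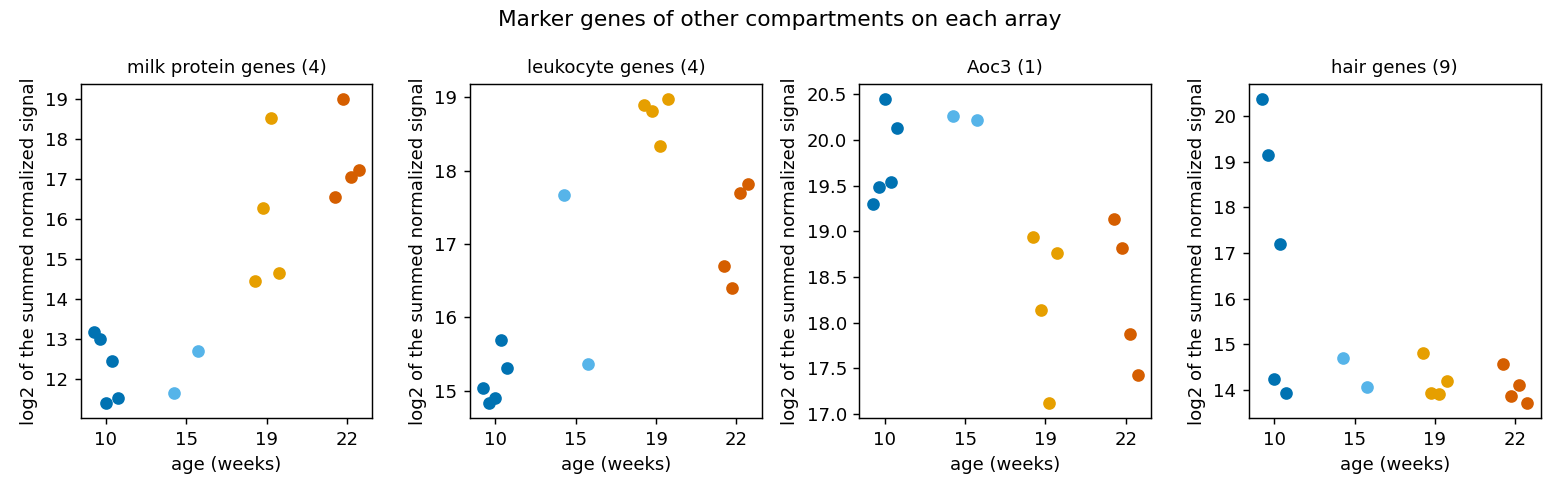
Log2 of the summed normalized signal of nameable marker genes on each array, by age in weeks: milk protein genes, leukocyte list genes (with the chemokine genes Ccl19 and Ccl21a), Aoc3 as the single adipocyte marker, and hair genes. Points are animals. The hair sum reaches 17.19 to 20.37 on 3 week 10 arrays and stays at or below 14.81 on all others.

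Few relatives of either gene could be named. The keratins were Krt23, Krt25 and Krt27, of which none passed at week 22 or week 19 against week 10, and Krt23 had the smallest p at week 22. Krt25 and Krt27, of the inner root sheath of hair, were above background on 0 of 4 week 22 arrays and on 3 of 5 week 10 arrays, the 3 rich in hair genes. Krt27 entered the test only through week 10, and Krt25 also through week 19 (3 of 4 arrays). Krt25 stood at 18.74, 17.62 and 15.33 on those 3 week 10 arrays and at 8.32 and 8.06 on the other week 10 arrays. Of 7 Krtap genes, 6 were tested and none passed. The smallest p-values among them belonged to Krtap6-1 and Krtap4-2 (adjusted p = 0.0723 and 0.115 at week 22 against week 10), which were above background on the same 3 week 10 arrays and on no other array. No size is given for these differences, because the week 22 side was at background. The galectins were Lgals1, Lgals2 and Lgals7. Lgals1, known from stroma and immune cells, differed by -0.75 ± 0.26 at week 22 against week 10 (adjusted p = 0.0783) and by -0.82 ± 0.26 at week 19 (adjusted p = 0.0558). Per week of age it fell by 0.07 ± 0.02 log2 units (limma adjusted p = 0.0388), where 6.45% of all probes were called lower. This slope was not checked under other processing. Lgals2, of gut epithelium, was above background on 1 of 15 arrays and was not tested.

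Lists of other epithelial genes were nearly empty of names. Of 23 simple and luminal genes 1 was named, Tmem139, a membrane protein above background on 3 of 5 week 10 arrays, which rose at week 22 (2.32 ± 0.39, adjusted p = 0.00253) and week 19 (2.03 ± 0.39, adjusted p = 0.00549) against week 10. The list was drawn up with earlier results of these data known, so this rise of 1 gene is not read as a change of luminal epithelium. Of 14 basal and myoepithelial genes, 25 genes of stratified epithelium and 15 p53 targets, Lgals7 was the only 1 named in each. The milk protein genes were mostly at background in young glands. Csn1s2a, the 1 of them above background on 4 of 5 week 10 arrays, rose by 5.78 at week 22 and 4.25 at week 19 against week 10 (adjusted p = 0.00167 and 0.0098). Csn2 was above background on 4 of 4 arrays at week 22 and at week 19, against 1 of 5 at week 10, Csn1s2b on 4 of 4 at week 22 and 2 of 4 at week 19, and Wap on 3 of 4 and 2 of 4, each against 1 of 5 at week 10. These 3 genes entered the test only through the late ages, where they were high, so their passing is given no weight and no size. The 4 genes of the leukocyte list were above background on all arrays. Against week 10, where 7.78% of all probes were called higher at week 22 and 7.28% at week 19, 3 of the 4 rose at week 22 (median 2.00) and 4 at week 19 (median 3.41), among them the lymphoid chemokine gene Ccl21a by 2.33 and 4.83. Aoc3 fell at week 22 (-1.46 ± 0.42, adjusted p = 0.0377) and at week 19 (-1.54 ± 0.42, adjusted p = 0.0288) against week 10. The Aoc3 call at week 22 ended without week 22 replicate 4 (-1.17, adjusted p = 0.13) and at week 19 without week 19 replicate 3 (-1.17, adjusted p = 0.0986), among others, and both ended with scan day as a block (-1.23 and -1.31, adjusted p = 0.121 and 0.103) and with median centring (-1.14 and -1.501, adjusted p = 0.118 and 0.0574).

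The named genes most like each of the 2 were found by Pearson's r of log2 signals over the 15 arrays, among 206 others that were tested. For Krt23 they were Tceal9, of a transcription elongation factor-like family (r = 0.947), Tnk1, a tyrosine kinase without a receptor part (0.916), Trim59, a tripartite motif protein (0.879), Chrnb1, a subunit of the muscle acetylcholine receptor (0.834), and Tnfsf13, the B cell ligand APRIL (0.805). Of these, Tnk1, Trim59, Chrnb1 and Tnfsf13 had their lowest value on week 10 replicate 3, at 13.07, 10.18, 12.18 and 13.54. Tceal9 was lowest on week 15 replicate 1, at 15.93, with 16.13 on week 10 replicate 3. Among all 20866 other probes, 0.422% were more like Krt23 than Tceal9 and 5.65% more than Tnfsf13. For Lgals7 they were Csprs (0.73), the kinase gene Lrrk1 (0.722), Tmem139 (0.629), Chrnb1 (0.619) and C130026I21Rik (0.618). More like Lgals7 than Csprs were 0.393% of probes, and more than C130026I21Rik 2.26%. All of these arrays share the same ages and normalization, and the correlations are descriptions.

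**Figure D5:**
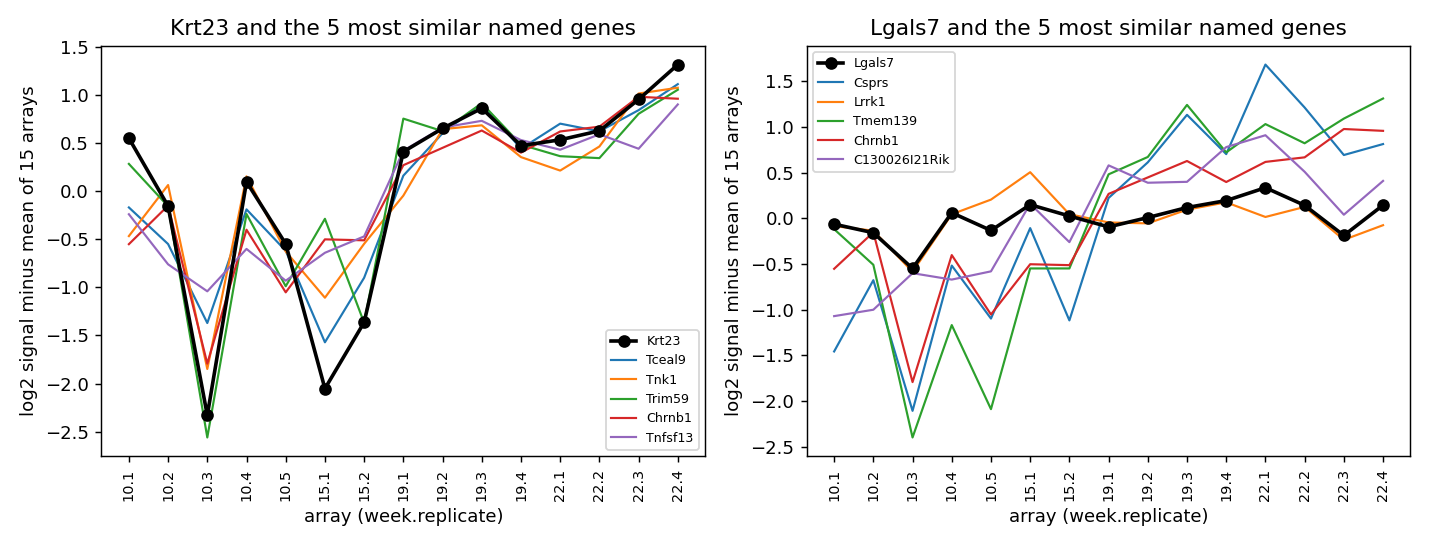
Log2 signal minus the mean of 15 arrays for Krt23 (left) and Lgals7 (right), in black, with the 5 named genes whose profiles correlate best with each. The horizontal axis gives week and replicate of each array. The genes on the left share the dip at week 10 replicate 3, and on the right the black line is flatter than most of the others.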

How the data were processed

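Total RNA of mammary whole mounts was labelled with digoxigenin and hybridised to AB1700 arrays read by chemiluminescence, per the labels' protocols. Per the file headers, each deposited array file lists for each probe a signal intensity, the SD of that signal, a score for signal to noise and a flag in whole numbers. Where that ratio was under 1, the deposited intensity equalled its SD (31.57% to 39.04% of probes). The sources used here do not say how background was treated. The authors' deposited table holds log2 values with a median of 10.03 on every array, in the same probe order as the scanner signals (Spearman 1). Why its values are offset is unknown. For Krt23 it held 15.356 on week 10 replicate 1 and 12.485 on replicate 3, against 15.305 and 12.428 after the quantile normalization used here. It served as an alternative, though one close to the main scaling.

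Signals of 33012 probes (303 control spots left out) were taken to log2 and quantile normalized. Probes above background (ratio of at least 3, flag under 5000) on at least 50% of the arrays of 1 age were kept, which left 20867. Ages were compared with limma 3.58.1 in R 4.3.3, with age as 4 levels or as a number, and the method was tested on simulated data. Groups came from the age in the labels. Replicate numbers follow deposit order. Scan days 1 and 2 come from the file headers and array series 1 to 4 from serial numbers in the labels. Accessions were matched to RefSeq (GRCm38.p6), which named 317 probes. Permutation tests were two-sided with 100000 resamples. Values were shuffled over all arrays and not within ages, also for deviations from the age means. The genes named were Krt23, Lgals7, members of fixed lists that passed or had the smallest p, marker genes and the 5 named genes most like each. The 2 genes, the lists and the tests were chosen with earlier results of these data known. The motifs were chosen after the promoters were seen. Alternatives were other scalings, filters, blocks and spread estimates, single batches and leaving out arrays.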

Additional observations from a re-analysis of the deposited data

How the results depend on the processing

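No paired analysis applied, because each array was of a different animal at 1 age by the series design. The labels carry no replicate numbers, and those used here only name samples. The calls of Krt23 against week 15 were lost when array series was a block (2.43 at week 22, 2.11 at week 19), on scan day 1 alone (2.58 and 2.46), within array series 4 (2.50 and 2.22) and, at week 22, without the pair of week 22 arrays that correlate closely (2.29). Leaving out 1 array gave 2.22 to 2.91 at week 22 and 1.96 to 2.65 at week 19 against week 15. Krt23 passed at week 22 against week 10 with median centring (1.58), array weights (1.25) and without the 3 week 10 arrays rich in hair genes (2.29), and ranged from 0.87 to 1.59 with 1 array left out. At week 19 against week 10 it passed without those 3 arrays (2.04). Its change per week passed with median centring (0.14), array series as a block (0.14), array weights (0.11), without week 15 (0.11) and without those 3 arrays (0.23), and ranged from 0.093 to 0.154 with 1 array left out. For week 22 minus week 19 it turned to -0.018 without the pair of week 22 arrays. The alternatives that left out those 3 or that pair of arrays were chosen after the data were seen. Those 3 had the highest Krt23 levels of week 10, so the passes of Krt23 without them are given no weight. Differences of Lgals7 near 0 changed sign. Week 22 minus week 15 was -0.032 with 75th percentile scaling, -0.047 within array series 4, -0.064 with array weights and -0.054 to 0.12 with 1 array left out. Week 19 minus week 15 was 0.059 when array series was a block, 0.082 on scan day 2 alone, 0.093 within array series 4 and -0.092 to 0.031 with 1 array left out. Week 22 minus week 19 was -0.007 when array series was a block, -0.074 on scan day 2 alone, -0.14 within array series 4, -0.029 with array weights and -0.024 to 0.15 with 1 array left out. The correlation of Krt23 with Lgals7 passed on deviations from the age means (r = 0.55, permutation p = 0.0419). Its rho passed with median centring (0.543). The correlation of Krt23 with the milk protein genes did not pass on such deviations (r = 0.425). The cause of these changes was not tested.

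The number of probes past the threshold was 2495 at week 22, 2612 at week 19 and 7 at week 15 against week 10, 1828 at week 22 and 2832 at week 19 against week 15, 0 at week 22 against week 19, and 3326 with age as a number. In that order, those that moved by over 1.5 times were as follows. Array weights gave 5158, 4240 and 3 against week 10, 1118 at week 19 against week 15, 21 between the late ages and 5406 with age as a number. Scan day as a block gave 1683 at week 19 against week 10, 1 between the late ages and 1782 with age as a number. Array series as a block gave 1 at week 15 against week 10 and 900 at week 19 against week 15. Within scan day 1 the 7 counts were 4, 51, 327, 0, 42, 8 and 0. Within scan day 2 they were 682, 566, 0, 649, 703 and, with age as a number, 763. Within array series 3 they were 0 and 196 at weeks 22 and 19 against week 10 and 0 with age as a number. Within array series 4 they were 450, 103, 0, 0 and 0, and 1000 with age as a number. Batches hold fewer arrays. Without the pair of week 22 arrays they were 743 at week 22 and 1 at week 15 against week 10, 116 at week 22 against week 15, 72 between the late ages and 1373 with age as a number. Without a filter 871 and 1522 probes passed at weeks 22 and 19 against week 15. With only the 2 ages compared they were 0 at week 15 against week 10, 578 and 1799 against week 15 and 1 between the late ages. At week 15 against week 10 the count was 2 with 75th percentile scaling, and 0 with robust eBayes and without the 3 week 10 arrays. Between the late ages it was 3 with median centring and 1 with robust eBayes. Leaving out 1 array gave 1211 to 2475, 1415 to 2752 and 3 to 943 against week 10, 331 to 2218 and 521 to 2521 against week 15, 0 to 13 between the late ages and 2131 to 3810 with age as a number. Median centring put the median difference of all probes at 0.137 for week 22 against week 10 (-0.011 after quantile normalization), and Lgals7 was then at 0.53.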

Other observations

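The size of the Lgals7 difference between weeks 22 and 10 depended on scaling between arrays, though it passed in none of 16 alternatives. Deposited signals of Lgals7, not scaled between arrays, ranged from 11751.62 on week 10 replicate 3 to 36070.89 on week 22 replicate 4. The median signal of the arrays ranged from 650.215 on week 15 replicate 1 to 1626.02 on week 22 replicate 4. Median-centred log2 values of Lgals7 ran from 13.557 on week 10 replicate 3 to 14.615 on week 22 replicate 1. With each array centred on its median, Lgals7 stood 0.53 above week 10 at week 22 (limma adjusted p = 0.075), against 0.28 after quantile normalization. Under the same centring Krt23 stood 1.58 above week 10 at week 22.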
